A study of Homo sapiens with 2 samples.

Results

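A set of 2205 ETV4 binding peaks, 4.05% of the 54389 peaks in the list, lay deep inside very long genes. A peak belonged to this set when its summit, the base with the strongest enrichment, fell inside a protein-coding RefSeq gene longer than 200 kb and more than 50 kb from the end of every RefSeq gene on the hg38 build. These peaks are called deep peaks below, a gene with at least 1 of them is a host gene, and the bases that meet the rule are the deep interior. The peaks came from chromatin immunoprecipitation and sequencing with a Flag antibody in A549-shETV4 cells into which Flag-ETV4 had been re-introduced. A549 is an established human lung adenocarcinoma line, and the shRNA lowers the cells' own ETV4. The antibody recognises the Flag tag, so the peaks are taken as those of the tagged ETV4 supplied by the plasmid. There was no immunoprecipitate from cells without the tag, so signal from other sources was not measured. There was 1 immunoprecipitate and 1 input library, with no replicate and no second condition. For this reason no test between conditions was possible, and the 95% intervals given here (Wilson for shares, exact Poisson for densities and fragment numbers) cover counting error only. Intervals of densities take peaks as independent, and since deep peaks gather in some genes they are too narrow for comparing groups of genes. The antibody is given as one from CST in the methods and as one from Sigma in the labels, which was not settled. The depth of the libraries is not known from the peak list, and the number of fragments at each summit (the pileup), computed from its fold and its p-value, stands in for it.

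ETV4 is a transcription factor of the PEA3 branch of the ETS family, whose members bind DNA around a GGAA core and act downstream of RAS and MAPK signalling. ETS factors are best known at promoters, but they also bind enhancers, which can lie far from the start of any gene. Genes longer than 200 kb owe most of their length to introns, and many of them encode proteins of neurons, such as adhesion molecules of the synapse and ion channels. Their interior therefore offers long stretches of DNA that are transcribed when the gene is on but hold no gene end.

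Part of the deep interior carries a transcription start after all, because a long gene can have alternative promoters that open shorter transcripts. RefSeq promoter windows on GRCh38.p14 placed 348 such alternative starts, in 212 genes, inside the deep interior of the chromosomes the windows cover. The 250 bases before the start are shown here for the 6 with the highest fold among the 25 starts whose promoter window (250 bases before to 50 after) held a deep summit, since these are the deep peaks whose sequence can be read. SH3KBP1 is added because its window held more GGAA cores than the others; this choice was made with its values in view. Every run reads 5′ to 3′ on the strand of the gene, and capitals mark GGAA or its reverse complement TTCC, that is the ETS core on either strand. The windows lie at chr15:68578743-68578992 on the plus strand for CORO2B, chr7:75639243-75639492 on the minus strand for HIP1, chr6:150683397-150683646 on the plus strand for PLEKHG1 and chr3:169146540-169146789 on the minus strand for MECOM. Those of FGF12 (chr3:192409598-192409847, minus strand), RAP1GAP2 (chr17:2853434-2853683, plus strand) and SH3KBP1 (chrX:19833136-19833385, minus strand) follow.
CORO2B: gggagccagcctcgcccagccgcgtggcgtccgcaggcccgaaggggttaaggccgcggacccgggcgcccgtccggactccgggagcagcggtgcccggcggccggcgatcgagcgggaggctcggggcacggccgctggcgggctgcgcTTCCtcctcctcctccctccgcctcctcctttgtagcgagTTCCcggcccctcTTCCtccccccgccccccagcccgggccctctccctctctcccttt
HIP1: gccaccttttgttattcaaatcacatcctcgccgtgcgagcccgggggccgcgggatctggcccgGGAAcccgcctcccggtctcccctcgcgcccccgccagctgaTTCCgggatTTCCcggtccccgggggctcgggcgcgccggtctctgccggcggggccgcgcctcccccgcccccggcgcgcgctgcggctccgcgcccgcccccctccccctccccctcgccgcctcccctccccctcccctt
PLEKHG1: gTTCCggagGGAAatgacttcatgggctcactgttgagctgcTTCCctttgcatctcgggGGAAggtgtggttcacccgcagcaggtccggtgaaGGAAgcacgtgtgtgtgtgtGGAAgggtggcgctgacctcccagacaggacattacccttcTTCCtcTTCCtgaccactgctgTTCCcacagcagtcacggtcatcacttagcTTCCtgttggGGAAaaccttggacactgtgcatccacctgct
MECOM: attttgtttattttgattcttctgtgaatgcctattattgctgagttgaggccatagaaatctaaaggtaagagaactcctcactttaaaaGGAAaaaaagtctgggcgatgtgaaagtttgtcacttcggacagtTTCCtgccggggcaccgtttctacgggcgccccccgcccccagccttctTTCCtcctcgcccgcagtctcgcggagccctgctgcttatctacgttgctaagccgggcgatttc
FGF12: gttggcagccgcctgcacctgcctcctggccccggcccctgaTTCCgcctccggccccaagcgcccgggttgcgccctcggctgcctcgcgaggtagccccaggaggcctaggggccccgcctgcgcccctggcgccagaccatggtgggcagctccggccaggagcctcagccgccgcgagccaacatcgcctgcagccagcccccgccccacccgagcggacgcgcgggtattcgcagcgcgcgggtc
RAP1GAP2: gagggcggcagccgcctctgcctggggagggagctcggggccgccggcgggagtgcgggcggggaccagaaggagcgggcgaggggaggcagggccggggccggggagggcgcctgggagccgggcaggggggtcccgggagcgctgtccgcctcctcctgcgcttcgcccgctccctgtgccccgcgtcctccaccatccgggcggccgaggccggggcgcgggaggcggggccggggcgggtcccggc
SH3KBP1: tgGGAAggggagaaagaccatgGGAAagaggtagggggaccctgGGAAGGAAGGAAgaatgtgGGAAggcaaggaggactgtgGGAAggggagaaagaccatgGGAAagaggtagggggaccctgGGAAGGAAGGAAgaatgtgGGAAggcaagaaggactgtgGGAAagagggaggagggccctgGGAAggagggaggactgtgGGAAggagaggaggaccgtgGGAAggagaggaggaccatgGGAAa

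The windows differed in their number of ETS cores while their peaks were all of high fold. At CORO2B, which encodes an actin-binding coronin, the summit lay 168 bases before the start with a fold of 66.1, a width of 2127 bp and 150 fragments, in a window with 3 cores and 76.8% G and C. HIP1, a clathrin adaptor of endocytosis, had its summit 236 bases before the start with a fold of 57.1 and 160 fragments, and also 3 cores. The summit at PLEKHG1 was 104 bases before the start with a fold of 49.4, in the window with 11 cores, the nearest of them centred 11.5 bp away. MECOM, a zinc finger transcription factor gene, had a fold of 47.6 with its summit 20 bases after the start. FGF12, an intracellular member of the fibroblast growth factor family, had a fold of 46.7 and 219 fragments with its summit 10 bases before the start. Its window held 1 core, centred 196.5 bp from the summit on the upstream side, and ended at the start, so the other side was hardly read. At RAP1GAP2, which switches off the small GTPase Rap1, the fold was 43.2 and the window held 0 cores with 83.2% G and C. SH3KBP1, an adaptor of receptor endocytosis, was the opposite case, with 17 cores in a repeated stretch, the nearest centred 1.5 bp from the summit, and a fold of 25.8. Within these 7 windows the number of cores ran from 0 to 17 in no order that followed the fold. Cores were counted only in the 250 bases before each start. For summits near or past an edge of that run, as at HIP1, MECOM and FGF12, nearer cores outside it would be missed. Such a match is a description of letters and not a binding site.

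Over all 348 deep alternative starts, 69 had a peak within 1 kb, or 19.8% (16.0 to 24.3), against 2.01% of the bases of the deep interior that lay within 1 kb of a summit. Outer starts were counted for 390 of the 1228 long genes with deep interior, and 63.3% (58.4 to 68.0) of these had a peak. For 6971 of the 20037 protein-coding genes the share was 60.2%. The remaining genes had no outer start in this count. Deep starts were therefore marked less often than the outer starts counted for the same class of gene, and more often than the surrounding bases. The 69 starts lay in 55 genes, and starts of 1 gene can share a peak, whereas outer starts were 1 per gene. The interval for deep starts takes them as independent and does not allow for this. The starts with a peak were richer in G and C, with a median of 61.6% over the 250 bases before them, against 44.0% for the 279 deep starts without one and 58.0% for all 34788 RefSeq starts. Shares of windows with the ETS core cannot tell whether it marks the bound sequence, because a peak within 1 kb need not have its summit in the window. Only 34 of the deep starts had a summit within 250 bp. In the 25 windows that held a deep summit, GGAA on either strand was found in 80.0% (60.9 to 91.1). SH3KBP1 and ATP2B2 each gave overlapping windows that share a summit, and the interval takes these as independent. GGAA on either strand was found in 87.0% (77.0 to 93.0) of the windows of starts with a peak, in 92.1% (88.4 to 94.7) of those without and in 92.7% of all windows, so that nearly every window of this length holds it. The longer ETS site CCGGAAGT was found in 0 of the 69 and 0 of the 279 windows, and in 1183 of the 34788 windows of all starts. The site AGGAAGT, known from the PEA3 branch and partly overlapping the former, was found in 5.80% and 8.24% of the windows, and in 2435 of all 34788. The AP-1 site TGANTCA was found in 5.80% and 9.68% against 6.55% of all, and the letters TATAAA, searched as a control with no ETS core, in 4.35% and 15.8% against 10.8%. All letters were searched on both strands.

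The 61 deep peaks within 1 kb of an alternative start were 2.91% of the 2096 deep peaks on the chromosomes covered by the start windows. Their median fold was 12.6, their median width 827 bp and their median pileup 33 fragments. The other 2035 deep peaks had medians of 8.14, 441 bp and 21 fragments. A fold of 20 or more was reached by 27.9% (18.2 to 40.2) of the former and 20.5% (18.8 to 22.4) of the latter, and these intervals overlap. The great majority of deep peaks thus had no annotated start nearby.

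Deep peaks were sparser than peaks in the rest of the long genes and denser than peaks far from genes. They numbered 1.03 per 100 kb (0.988 to 1.07) over 213.9 Mb of deep interior, which is 7.06% of the 3029 Mb spanned by the list. The part of the long genes within 50 kb of a gene end held 5698 peaks, or 1.53 per 100 kb (1.495 to 1.575). These ends are those of any RefSeq gene, so this part also takes in interior near another gene. With the ends of protein-coding genes only, 4962 peaks counted as deep. Intergenic bases more than 50 kb from every gene end held 1963 peaks, or 0.432 per 100 kb (0.413 to 0.451), over 455 Mb that include gaps of the assembly, and all peaks together came to 1.80 per 100 kb. The intervals of the first 3 densities do not meet. The length of the gaps was not measured.

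Within long genes the density fell with distance from the nearest gene end, steeply at first and slowly afterwards. It was 5.60 per 100 kb (5.25 to 5.97) in the first kb, 1.63 between 1 and 5 kb, 1.37 between 5 and 10 kb, 1.33 between 10 and 25 kb and 1.21 between 25 and 50 kb. Past the 50 kb limit of the rule it went on at 1.16 (1.08 to 1.23) between 50 and 75 kb and 1.11 (1.02 to 1.21) between 75 and 100 kb, then 0.936 (0.853 to 1.03) up to 150 kb, 0.917 (0.788 to 1.06) up to 200 kb and 0.608 (0.496 to 0.737) beyond 200 kb. Neighbouring steps from 25 kb up to 200 kb have overlapping intervals, and the step beyond 200 kb lies below all the others. The fold, like the density, was highest in the first kb, but it did not go on falling over the deep steps. Its median was 15.3 in the first kb, 8.32 between 1 and 5 kb and between 7.83 and 9.67 in all the deep steps, with the 103 peaks beyond 200 kb at 9.67. The deepest peak, in RBFOX1, was 543 kb from any gene end with a fold of 7.88 and 17 fragments. The median deep peak was 82.4 kb from an end.

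**Figure D1:**
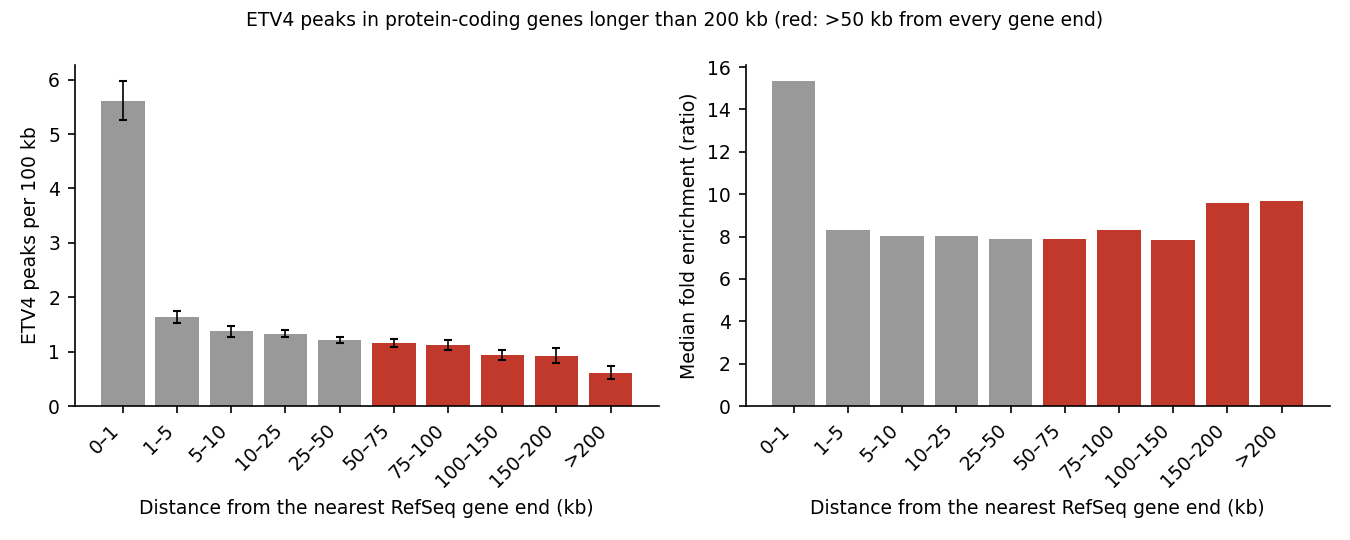
ETV4 peaks in protein-coding genes longer than 200 kb by the distance of the summit from the nearest RefSeq gene end in kb, with peaks per 100 kb on the left (error bars are exact Poisson 95% intervals) and the median fold enrichment, a ratio, on the right. Grey bars lie within 50 kb of a gene end and red bars are deep peaks. Density fell from 5.60 per 100 kb in the first kb to 0.608 beyond 200 kb. The median fold was 15.3 in the first kb and between 7.83 and 9.67 in the red bars.

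In strength and shape, deep peaks were close to intergenic peaks and unlike peaks at gene ends. The fold of a deep peak, its enrichment over the control level computed from the input, had a median of 8.19, with quartiles of 5.29 and 16.8 and a range of 2.57 to 237. The median was 8.32 for the intergenic peaks, 8.76 for peaks of long genes nearer to an end, 15.3 for the 11183 peaks within 1 kb of a protein-coding gene end and 9.63 for all peaks. The median width was 444 bp, with quartiles of 325 and 618 bp, against 437, 476, 952 and 519 bp in the same order. The median pileup was 21 fragments against 21, 23, 46 and 26. Peaks of 1 kb or wider made up 5.17% of the deep peaks, 4.18% of the intergenic peaks and 47.0% of those at gene ends. Width and fold rose together over the 2205 deep peaks (Spearman rank correlation 0.76), which share 1 library and a width that the peak caller extends with the signal. Fold and distance from a gene end gave a rank correlation of 0.03.

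A fold of 20 or more was reached by 457 deep peaks, 20.7% (19.1 to 22.5), in 310 host genes, beside 25.4% of all peaks. The share was 21.96% (20.2 to 23.8) for intergenic peaks and 38.8% for peaks at gene ends. These 457 peaks had a median width of 689 bp and a median pileup of 85 fragments. The 453 deep peaks with a fold under 5 had medians of 296 bp and 10 fragments, so the weak end of the set rests on few fragments. At a fold of 50 or more 115 deep peaks remained, or 5.22% (4.36 to 6.22), against 6.58% (6.14 to 7.06) at gene ends, and at 100 or more 18, or 0.816% (0.517 to 1.29), beside 0.932% of all peaks. The intergenic share at that fold was 1.43% (0.989 to 2.05) and the share at gene ends 0.340% (0.248 to 0.466). Of the limits of 20, 50 and 100, only at 100 was the share higher in the deep peaks than at gene ends, where the highest single fold was 269.8. The control level behind the fold had its lowest possible value, 1.28, at 37.1% of deep peaks, 41.9% of intergenic peaks, 15.6% of peaks at gene ends and 29.0% of all peaks. At such peaks the fold depends on the pileup alone, and the part of this difference in the folds was not tested.

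**Figure D2:**
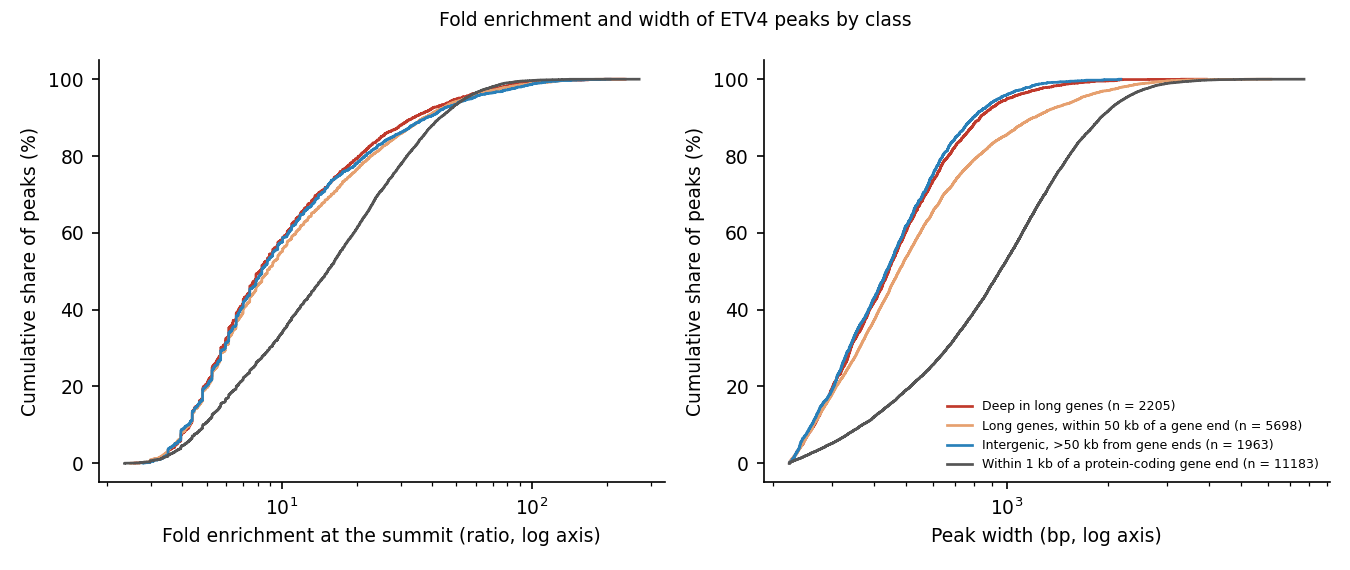
Cumulative share of peaks, in percent, against the fold enrichment at the summit (left, ratio, log axis) and the peak width in bp (right, log axis) for 4 classes of peaks. The curves of deep peaks and of intergenic peaks run together, with median folds of 8.19 and 8.32, and the curve of peaks within 1 kb of a protein-coding gene end lies to their right, at a median fold of 15.3 and a median width of 952 bp.

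The strongest deep peaks were less than 1 kb wide and lay in genes of very different function. The highest fold, 237, was in UNC13B, which primes synaptic vesicles for release, at a peak of 873 bp with 632 fragments (584 to 683) and its summit at position 35328600 of chromosome 9. The other deep peak of that gene had a fold of 4.52. PTPRK, a receptor tyrosine phosphatase, followed with 195, and TRHDE, the ectoenzyme that degrades thyrotropin-releasing hormone, with 186. RERE, a nuclear corepressor, held its only deep peak at a fold of 170. ARID1B, a subunit of the SWI/SNF chromatin remodeller, held 6, of which 1 had a fold of 169 and the others lay between 3.83 and 38.7. EXT1, a polymerase of heparan sulfate chains, had a fold of 161 and NKAIN3, a partner of the sodium pump, 157. The list of 10 ends with the phospholipase PLCB4 at 139, ZNF536 at 136 and TCF4, a basic helix-loop-helix factor, at 116. All 10 were between 678 and 974 bp wide, held between 271 and 632 fragments and lay between 50.8 and 197 kb from any gene end.

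The widest deep peaks were others. At 3938 bp, the widest was in ADGRL2, an adhesion G protein-coupled receptor, with a fold of 14.8 and 43 fragments (31.1 to 57.9) at its summit. KLF12, a Krüppel-like repressor, had one of 3299 bp with a fold of 40.3. PPP2R2C, a regulatory subunit of protein phosphatase 2A, had one of 2650 bp with a fold of 111, the only fold over 100 among the 5 widest. DAPK1, a kinase of cell death, and CHCHD6, a protein of mitochondrial cristae, followed with 2215 and 2174 bp and folds of 36.8 and 34.2.

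Of 1396 protein-coding genes longer than 200 kb, 1228 had at least 1 kb of deep interior, and 702 of these, 57.2% (54.4 to 59.9), were hosts. The peaks were spread unevenly among them. A single deep peak was found in 261 hosts, 153 hosts held 5 or more, with 1147 peaks between them, and 26 hosts held 10 or more, with 349. The median was 2 per host, and 6 peaks lay in 2 overlapping hosts each. The 526 genes without a deep peak had less room, with a median deep interior of 69.5 kb against 164 kb for hosts and a median length of 284 kb against 400 kb. The number of deep peaks followed the deep interior over the 1228 genes (Spearman rank correlation 0.51), where both quantities grow with gene length. Among the 719 genes with at least 100 kb of deep interior, 192 (26.7%) still held none.

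Density was lower in the longest genes. Genes of 200 to 300 kb held 1.36 deep peaks per 100 kb of deep interior (1.24 to 1.49), those of 300 to 500 kb 1.25 (1.16 to 1.34), those of 500 to 1000 kb 0.953 (0.882 to 1.03) and those over 1000 kb 0.658 (0.589 to 0.733). The share of hosts went the other way, from 40.1% to 60.2%, 74.9% and 94.2%, the last being 65 of 69 genes. Within the 719 genes that had at least 100 kb of deep interior, density and gene length gave a rank correlation of −0.03, gene by gene. The classes above pool the bases of all 1228 genes, and which of these differences matters was not tested.

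**Figure D3:**
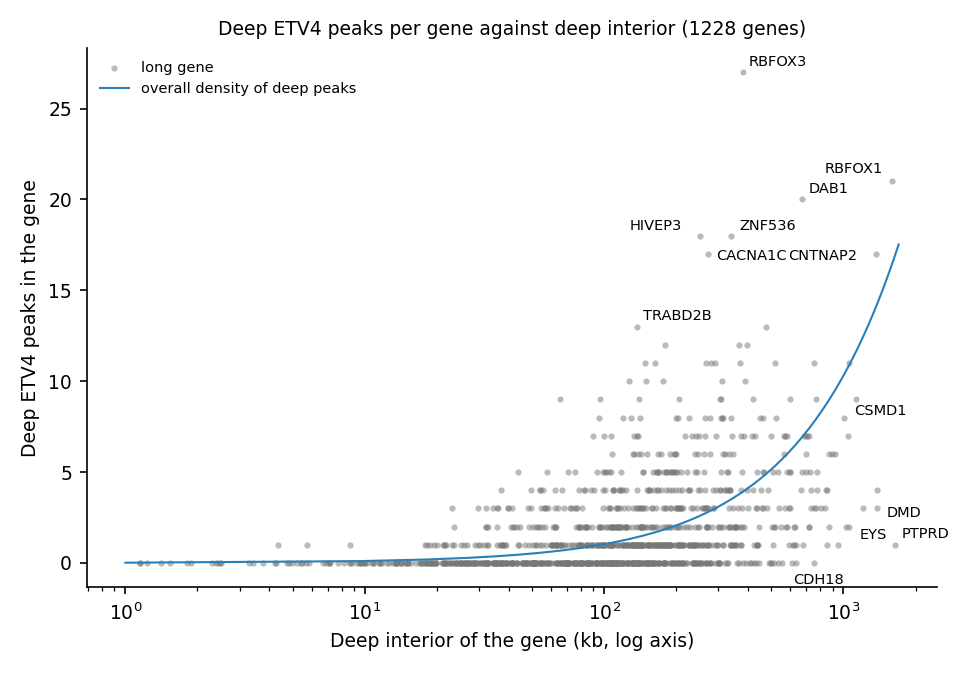
Number of deep ETV4 peaks in each of 1228 long genes against the kb of deep interior of the gene (log axis), with the number that the overall density of 1.03 per 100 kb gives as a blue line. RBFOX3 stood highest with 27 peaks, and PTPRD (1) and CDH18 (0) lay well below the line.

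The gene with the most deep peaks was RBFOX3, which encodes the neuronal splicing factor known as the antigen NeuN. It held 27 within 379 kb of deep interior, or 7.12 per 100 kb (4.69 to 10.4), where the overall density gives 3.91. Their folds ran from 3.83 to 79.6 with a median of 7.01, and 6 reached 20. The strongest was 59 kb from the nearest gene end, with a width of 839 bp. Of the first 11 in order of position, 6 had folds above 20 (79.6, 21.9, 22.3, 64.8, 35.5 and 26.8), while the last 10, on the far side of the gene, lay between 4.26 and 8.34. The strong deep peaks of RBFOX3 were thus gathered at its lower-coordinate side, which is the 3′ side of this minus-strand gene.

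RBFOX1, its relative and the longest gene in the annotation at 2474 kb, held 21 in 1589 kb, or 1.32 per 100 kb (0.818 to 2.02), with a median fold of 7.44 and a highest fold of 55.2. DAB1, an adaptor of reelin signalling in neuronal migration, held 20, at 2.98 per 100 kb, with folds of up to 95.03. HIVEP3, a large zinc finger factor, held 18 at 7.12 per 100 kb, of which 6 reached a fold of 20 and the strongest 83.2. ZNF536, a zinc finger repressor of neuronal differentiation, also held 18, at 5.33 per 100 kb, and its median fold of 12.4 and median width of 743 bp were above those of all deep peaks. CACNA1C, the pore subunit of an L-type calcium channel, held 17 at 6.27 per 100 kb, none of which passed a fold of 12.7. CNTNAP2, a neurexin-like adhesion protein, held 17 at 1.25 per 100 kb over 1363 kb, and 5 of these reached a fold of 20, 3 of them at 48.6. TENM4, a teneurin, held 13 with a highest fold of 16.2. TRABD2B, a membrane protease that inactivates Wnt proteins, held 13 with a highest fold of 17.5, and CALN1, a neuronal calcium sensor, 12 with a median fold of 16.3. A high number of deep peaks thus went with a median fold above the 8.19 of all deep peaks in some genes, such as ZNF536 and CALN1, and with one below it in others, such as HIVEP3 (7.77), CACNA1C (6.13) and TRABD2B (6.13).

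By density, among genes with at least 100 kb of deep interior, TRABD2B came first with 9.50 per 100 kb (5.06 to 16.2). SORCS2, a sortilin-related receptor, followed with 7.91, and its 10 peaks had folds of 7.86 to 45.9 and a median of 16.3. ZMIZ1, a coactivator of the PIAS-like family, had 7.46, and SPON1, an extracellular matrix protein of axon guidance, 6.99. PREX1, an exchange factor for Rac, had 6.71, and PHACTR3, a regulator of phosphatase and actin, 6.70. DSCAML1, an adhesion molecule of the immunoglobulin family, had 6.67, and PRKAG2, a regulatory subunit of the AMP-activated kinase, 6.66. HIVEP3 and RBFOX3 were also among these 10. The intervals of these 10 genes overlap, so their order is not established.

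A few genes held mostly strong deep peaks. In PLXDC2, a plexin domain transmembrane protein, 6 of 7 reached a fold of 20, with folds of 31.9, 38.5, 35.0, 13.5, 30.2, 22.3 and 34.5 along the gene. KLF12 had 5 of 7 at or above 20 and SLC39A11, a zinc transporter, 5 of 8. In SLC39A11, 4 neighbours spaced over 15.4 kb had nearly equal folds, between 23.1 and 25.8.

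**Figure D4:**
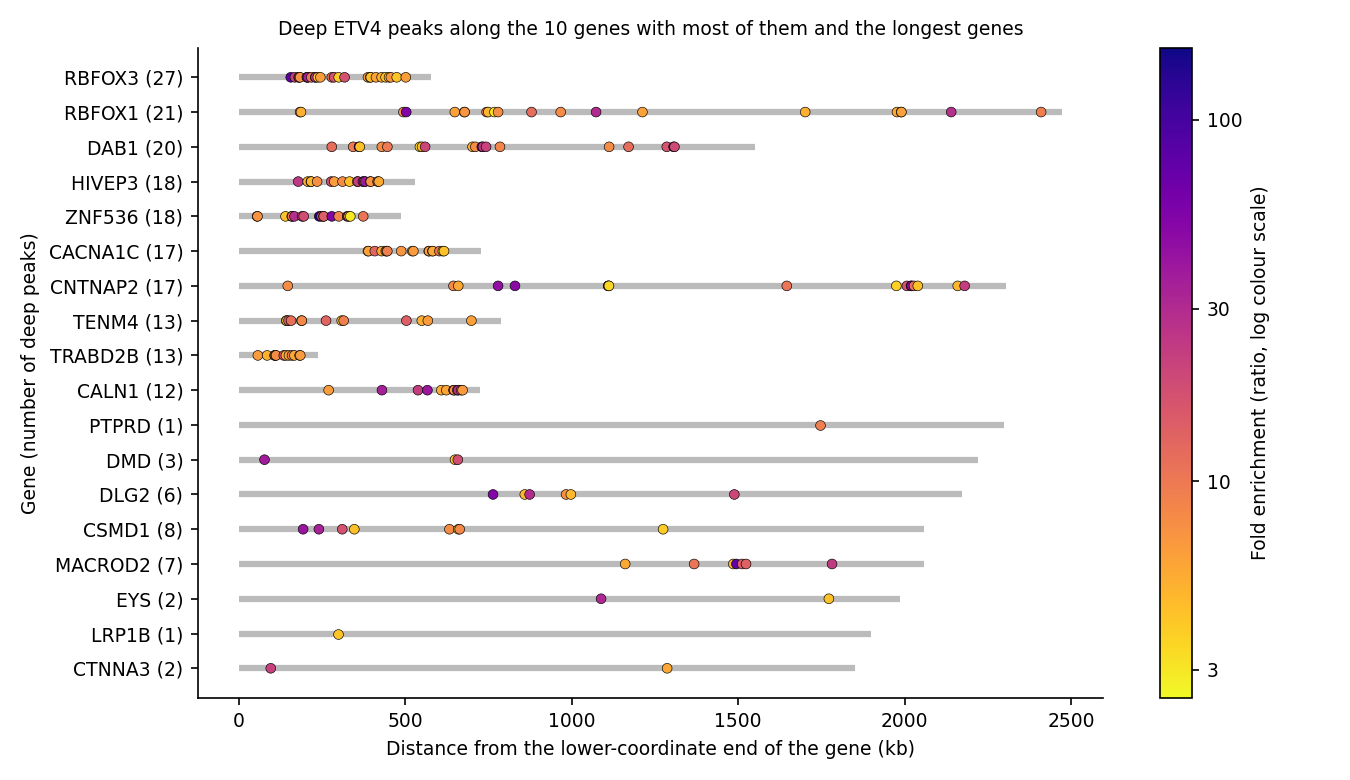
Deep ETV4 peaks (points, coloured by fold enrichment on a log scale) along the 10 genes with most of them and the longest genes, each gene a grey bar in kb from its lower-coordinate end, with the number of deep peaks in brackets. RBFOX3 held 27 in 576 kb and PTPRD held 1 in 2299 kb.

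Several of the longest genes were almost free of peaks. PTPRD, a receptor tyrosine phosphatase of 2299 kb, held 1 deep peak, with a fold of 9.26 and 10060802 of chromosome 9 as its summit, in 1645 kb of deep interior where the overall density gives 17.0. This was also its only peak of any kind. DMD, the dystrophin gene, held 3 with folds of 37.2, 4.30 and 18.4, where the overall density gives 14.2. EYS, a gene of photoreceptors, held 2 (folds 30.9 and 4.32) against 10.8, and LRP1B, a receptor of the LDL receptor family, 1 (fold 4.19) against 9.82. CTNNA3, an alpha-catenin, held 2 against 8.98. Others of this length were nearer to the overall density, with 6 against 9.22 in DLG2, a scaffold of the postsynaptic density, 7 against 7.40 in the ADP-ribose hydrolase MACROD2 and 8 against 10.3 in the complement regulator CSMD1.

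At the other extreme, 10 genes with between 445 and 756 kb of deep interior held no deep peak. They were the cadherin CDH18 (756 kb), the adhesion molecule NEGR1 (636 kb), the RNA-binding protein KHDRBS2 (612 kb), the follistatin-like protein FSTL5 (555 kb), the fragile-site hydrolase FHIT (535 kb), the teneurin TENM1 (514 kb), the interleukin receptor relative IL1RAPL2 (498 kb), and the immunoglobulin-family adhesion molecules CNTN4 (496 kb), SDK1 (489 kb) and NCAM2 (445 kb). The upper limit of the interval for a count of 0 was 0.488 deep peaks per 100 kb in CDH18 and 0.829 in NCAM2, below the overall 1.03 in all 10. With a count of 0 this limit depends on the deep interior alone. It was therefore fixed by the choice of these genes and is no test of a lower density. CDH18, KHDRBS2, FSTL5, FHIT, CNTN4 and NCAM2 held no peak anywhere along their length, while SDK1 held 5 and NEGR1 3, all within 50 kb of a gene end. Among the teneurins, TENM4 held 13, TENM2 5, TENM3 3 and TENM1, on the X chromosome, where deep peaks were sparsest, 0. These genes were picked for their length and their count, which is a description of the list.

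Grouped by function, the lists with the highest share of hosts had the lowest pooled density of deep peaks. Of 65 long genes of synaptic adhesion and axon guidance, 52 were hosts, 80.0% (68.7 to 87.9), beside 57.2% of all long genes, but their deep interior of 30.5 Mb held 0.761 deep peaks per 100 kb (0.666 to 0.866), beside 1.03 over all. Their leaders were CNTNAP2, TENM4 and DSCAML1. Common fragile site genes, which break under replication stress, had 26 hosts of 33, or 78.8%, and the lowest pooled density, 0.600 (0.499 to 0.717), although DAB1 with 20, CNTNAP2 with 17 and the cAMP phosphodiesterase PDE4D with 11 belong to them. Gene by gene, the median was 0.493 per 100 kb over all long genes, 0.742 in the synaptic list and 0.318 in the fragile site list. This order depended on genes with little deep interior. Among genes with at least 100 kb of it, the medians were 0.682, 0.592 and 0.318, with the synaptic list again below all long genes. Ion channels and neurotransmitter receptors had 40 hosts of 52, or 76.9%, and 1.21 per 100 kb (1.02 to 1.42), led by CACNA1C, by KCNIP1 with 9, and by the P/Q-type channel gene CACNA1A with 8, a number that ITPR2, an inositol trisphosphate receptor of calcium stores, shared.

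The list of cell junctions, polarity and the cytoskeleton had 51 hosts of 69, or 73.9%, and 0.921 per 100 kb (0.779 to 1.08). It was led by the formin FHOD3 with 11, PLCB4 with 10 and LPP, a LIM protein of focal adhesions, with 7. PLCB4 is a phospholipase and stands in this list only as it was drawn up. The list of growth factor receptors, kinases and RAS signalling, which includes the pathway upstream of ETV4, had 43 hosts of 65, or 66.2%, and 1.25 per 100 kb (1.06 to 1.47). The kinase MAST4 and the phosphodiesterases PDE1C and PDE4D held 11 each, as did the protein kinase PRKCB. The phosphodiesterases are neither receptors nor kinases and stand in this list as it was drawn up. Transcription factors and chromatin regulators had 45 hosts of 74, or 60.8% (49.4 to 71.1), and 1.17 per 100 kb (0.997 to 1.36), led by ZNF536 with 18, the neuronal zinc finger factor MYT1L with 12 and the orphan receptor ESRRG with 9. The median gene of these last 3 lists had 0.654, 0.740 and 0.525 per 100 kb, and that of the ion channels 0.860. Among genes with at least 100 kb of deep interior these medians were 0.767, 1.03, 0.751 and 0.860. A longer deep interior gives a gene more room to be a host, and 19 genes stand in more than 1 list. The 889 long genes in no list had 461 hosts, 51.9%, and 1.08 per 100 kb (1.03 to 1.14).

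The share of genes with a peak at an end was similar in hosts and in other long genes, with overlapping intervals. A peak within 1 kb of an end was found in 59.1% (55.4 to 62.7) of hosts and 62.2% (57.9 to 66.2) of long genes without a deep peak, beside 58.5% of all protein-coding genes. For the genes with a known strand, the 5′ end carried one in 57.8% (53.7 to 61.8) of 571 hosts and 62.5% (57.9 to 66.9) of 440 others, and the 3′ end in 1.93% and 1.82%. Seen from the other side, the deep interior of the 605 genes with a peak at the 5′ end held 1.11 deep peaks per 100 kb (1.04 to 1.18), and that of the 406 genes without one 0.929 (0.866 to 0.996). These intervals do not meet, but they take peaks as independent, although deep peaks gather in some genes. The share of hosts went the other way, with 54.5% and 59.4%. By position within the gene, the deep interior on the 5′ side of the midpoint held 0.982 per 100 kb (0.918 to 1.05) and that on the 3′ side 1.06 (0.993 to 1.13), with overlapping intervals and median folds of 8.32 and 7.94.

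Deep peaks had a near neighbour more often than intergenic peaks and less often than the other peaks of long genes, in the order of the densities of these classes. Another peak was found within 10 kb of 939 deep peaks, 42.6% (40.5 to 44.7), against 37.4% (35.3 to 39.6) of intergenic peaks. The share was 48.6% (47.3 to 49.9) for the other peaks of long genes and 55.8% for all peaks. The median distance to the next peak was 14.4 kb, against 19.7 kb for intergenic peaks and 7.73 kb for all. When deep peaks no more than 10 kb apart were joined, 1292 stood alone, 246 pairs and 79 triples formed, and 40 groups held 4 or more. The largest groups held 8 deep peaks each. One was in DAB2IP, a GTPase-activating protein for RAS, where folds of 3.90 to 53.6 lay within 21.9 kb, and the other in KCNIP1, a subunit of A-type potassium channels, where folds of 3.72 to 33.3 lay within 26.9 kb. Groups of 6 were found in IQSEC1, CELF4, MAST4, CALN1 and PLXNA4, the last within 11.2 kb. Folds inside a group were as a rule unequal, and SLC39A11, described above, was an exception.

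Chromosomes differed in the density of deep peaks largely as they did in the density of all peaks. Chromosome 19 had 4.73 per 100 kb (3.24 to 6.68), from 4 hosts among 5 long genes and only 0.677 Mb of deep interior, and 18 of its 32 deep peaks were those of ZNF536. Chromosome 17 had 2.42 (1.95 to 2.96), of which RBFOX3 gave 27 of 93, and chromosome 20 had 2.01 (1.59 to 2.51). The X chromosome had 0.410 (0.293 to 0.558), the lowest, and 40 deep peaks in 9.76 Mb. Over the 23 chromosomes the density of deep peaks and that of all peaks gave a Spearman rank correlation of 0.77, where the deep peaks are part of all peaks and a chromosome rich in genes has little deep interior. The median fold ranged from 7.01 on chromosomes 11 and 18 to 11.2 on chromosome 4. The control level also differed, and was at its lowest value at 71.4% of the deep peaks on chromosome 13 and 70.0% on X, but at 4.38% on chromosome 6 and 3.13% on chromosome 19. The part of this difference in the densities was not tested.

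**Figure D5:**
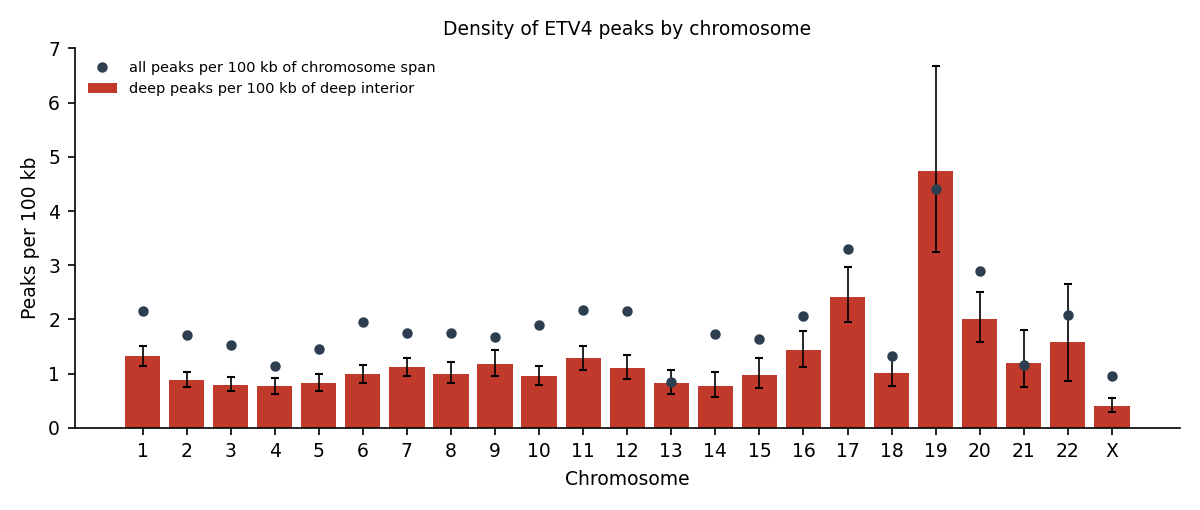
Density of ETV4 peaks by chromosome, as deep peaks per 100 kb of deep interior (red bars, with exact Poisson 95% intervals) and all peaks per 100 kb of chromosome span (points). Chromosome 19 was highest at 4.73 deep peaks per 100 kb and X lowest at 0.410.

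At the limits of the rule, the shortest hosts were LRRC49 (200281 bp, fold 28.9) and PAX5, a factor of B cells (201000 bp, fold 45.5). Peaks of LRCH1 (199872 bp, fold 4.23) and SLC35D4 (199440 bp, fold 3.71) stayed out because the gene was too short. The deep peaks nearest to an end were in CA10, at 50.051 kb with a fold of 2.72, and TMEM117, at 50.096 kb with a fold of 3.42. Those in TG, at 50 kb with a fold of 52.6, and SIL1, at 49.991 kb with a fold of 5.37, stayed out. The gene table gives outer ends and no exons, so no deep peak was assigned to an exon or an intron.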

How the data were processed

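The authors deposited 1 narrowPeak list, from Flag-ETV4 chromatin of A549-shETV4 cells against its input, called on a single library. The submitters' processing notes name Bowtie2 2.4.1, SAMtools, MACS2 2.2.7.1 and deepTools 3.5.0, and hg38. A minimum fold change is stated for the list, whose lowest fold was 2.34. Other parameters and the handling of duplicates are not given in the sources used here. For each peak the deposited columns hold the fold over the control as a ratio, −log10 p-values and −log10 q-values (lowest 1.30), and a display score that was not used. The signal of the input library was not analysed.

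Summits were placed on 59679 RefSeq genes of GRCh38.p14 (20037 protein-coding). Strand, alternative starts and sequences came from RefSeq start windows, which cover all but 1 of the chromosomes in use and gave a strand for 1011 of the 1228 long genes. Pileup and control level were solved from fold, taken as (pileup + 1)/(control + 1), and the Poisson p-value, with a largest deviation of 0.00785 in −log10 p. The steps were tested on simulated data (0 of 2000 peaks misplaced, 3000 of 3000 pileups recovered). The work used matplotlib 3.10.9, pandas 2.3.3, scipy 1.17.1 and numpy 2.4.6 under Python 3.11.15. Named genes were the 10 with most deep peaks, the 10 densest with at least 100 kb of deep interior, the 10 longest, the 10 with most deep interior and no deep peak, the hosts of the 10 highest folds and of the 5 widest peaks, the 3 leaders of each list and the peaks nearest to the limits. Others were named after their values were seen. The set of peaks and the gene lists were chosen with earlier results of these data known. A change of the distance limit, gene length, gene ends, peak threshold and other settings was tried.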

Additional observations from a re-analysis of the deposited data

How the results depend on the processing

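Of 60 recomputed values under 17 settings, 23 stayed within the interval of the reported value and 37 moved. For the number of deep peaks the limit was 1.5 times. No test was run, and where a setting keeps other peaks or genes by its construction, the values follow from that. Some settings changed the quantity itself, as with pileup for fold or a fold of 50 for 20. Their values were still set against the interval of the original quantity, so the 37 is no measure of stability. With 25 kb from every gene end there were 3750 deep peaks, 1.10 per 100 kb and 71.7% hosts. With 100 kb there were 744, 0.867 per 100 kb, 46.0% hosts, a median width of 431 bp and 33.5% with another peak within 10 kb. Genes longer than 100 kb gave 42.4% hosts, and genes longer than 500 kb gave 993 deep peaks, 0.830 per 100 kb, 79.2% hosts and 34.2% with a near peak. Counting ends of protein-coding genes only gave 4962, 1.16 per 100 kb, 76.0% hosts and 45.4% with a near peak. Peaks with a fold over 5 gave 0.819 per 100 kb, 52.4% hosts, a median fold of 10.5, a median width of 493 bp, 26.1% at a fold of 20 or more and 36.1% with a near peak. Peaks with −log10 q over 10 gave 1336 deep peaks, 0.625 per 100 kb, 46.8%, 13.7, 548 bp, 34.2% and 29.1% in the same order. Per 100 kb of whole host gene length the density was 0.608; within 25 kb another peak was found for 62.7%; within 3 kb of an end 67.4% of hosts had a peak; the median pileup was 21 in place of the fold; and 5.22% reached a fold of 50. For the alternative starts, chosen after seeing the data, 9.77% had a peak within 250 bp and 26.4% within 3 kb, against 19.8% within 1 kb. The cause of these shifts was not tested otherwise. The median fold stayed between 8.08 and 8.34 under every change of the distance limit, the gene length or the gene ends.

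No paired analysis was possible because there is a single immunoprecipitate, and no replicate to leave out. The ETS motif at the summits was not run, as no genome sequence was used here. The pileup limits single peaks, since deep peaks with a fold under 5 had a median of 10 fragments.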
